A study of Mus musculus with 16 samples.

Results

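The 6 genes described here encode receptors through which transmitters and local mediators set the tone of airway muscle: Chrm2, Chrm3, Adrb1, Ednra, Ednrb and Cysltr1. They were taken by symbol from the 57180 genes of the count tables. The rule itself uses no measured value, but its symbols were chosen with earlier results of these data known. All 6 passed the filter on low counts that left 17276 genes for testing. RNA came from whole lungs of fetal mice at E14.5 (days of embryonic development), male by the design text, in 4 groups of 4 libraries. The groups were B6 (C57BL/6J) control, B6 with BMS493, A/J control and A/J with BMS493. BMS493 binds the retinoic acid receptors of every subtype and holds them in their repressive state. Pregnant females took it by mouth at 3.75 µg per g body weight per day between E9.5 and E14.5, while control dams were given corn oil. The question of the study was how strain and a passing block of vitamin A signalling before birth bear on airway hyperresponsiveness. The labels give no litters and no source of a library beyond its number, so p-values measure only the spread between these libraries.

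Acetylcholine from airway nerves contracts smooth muscle mainly through the M3 receptor (Chrm3), which couples to Gq, phospholipase C and calcium release. The M2 receptor (Chrm2) couples to Gi, lowers cyclic AMP in muscle and, on nerve endings, restrains further release of acetylcholine. Endothelins act through Ednra, a contractile receptor of muscle, and Ednrb, found on endothelium, muscle, mesenchyme and neural crest cells. Adrb1 is a beta-adrenergic receptor that raises cyclic AMP through Gs, and Cysltr1 is the receptor for the contractile cysteinyl leukotrienes. Retinoic acid acts through nuclear receptors that bind DNA at pairs of short half-sites.

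The libraries held 15207539 to 24146224 counts assigned to genes. A pair of genes that retinoic acid is known to induce checked the treatment, and both were called in both strains: Cyp26b1, a retinoic acid hydroxylase, averaged 18.2 counts per 1e6 counts (CPM) in B6 controls and 1.47 with BMS493, and 19.9 and 1.05 in A/J. Dhrs3, a retinaldehyde reductase, fell in both, from 17.7 to 7.19 CPM (B6) and from 17.6 to 4.20 CPM (A/J). Replicate 3 of the B6 BMS493 group stood apart: the summed level of 8 fibroblast markers was 10932 CPM there and 5935 to 6400.5 in the other 3 libraries of its group. Replicate 2 of that group had the highest sum of 8 epithelial markers, 2272 CPM against 1231 to 1670 CPM in the other 3, and the highest sums of endothelial and neural markers. Replicate 3 was the lowest library of its group for Chrm2, Chrm3, Ednra, Ednrb and Cysltr1, so values without it are given where a result rests on it. Smooth muscle genes were present in all groups, with mean levels of 391 to 583 CPM for Acta2 and 281 to 297 CPM for Myh11, the actin and the myosin heavy chain of smooth muscle. In whole lung, fewer cells that carry a receptor and less of its RNA per cell cannot be told apart.

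Divided by exon length, the endothelin receptors were the most abundant of the 6 in every group. Ednra averaged 46.4 to 52.6 and Ednrb 34.2 to 48.8 CPM per kb of exon over the 4 groups. Chrm2 followed at 0.927 to 2.51 CPM per kb. Adrb1 at 0.632 to 0.765, Chrm3 at 0.464 to 0.605 and Cysltr1 at 0.461 to 0.692 CPM per kb lay close together. Counts per library show the precision this gives: 1613 to 6909 counts for the endothelin receptors, 94 to 351 for Chrm2 and 24 to 91 for the other 3 receptors.

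**Figure D1:**
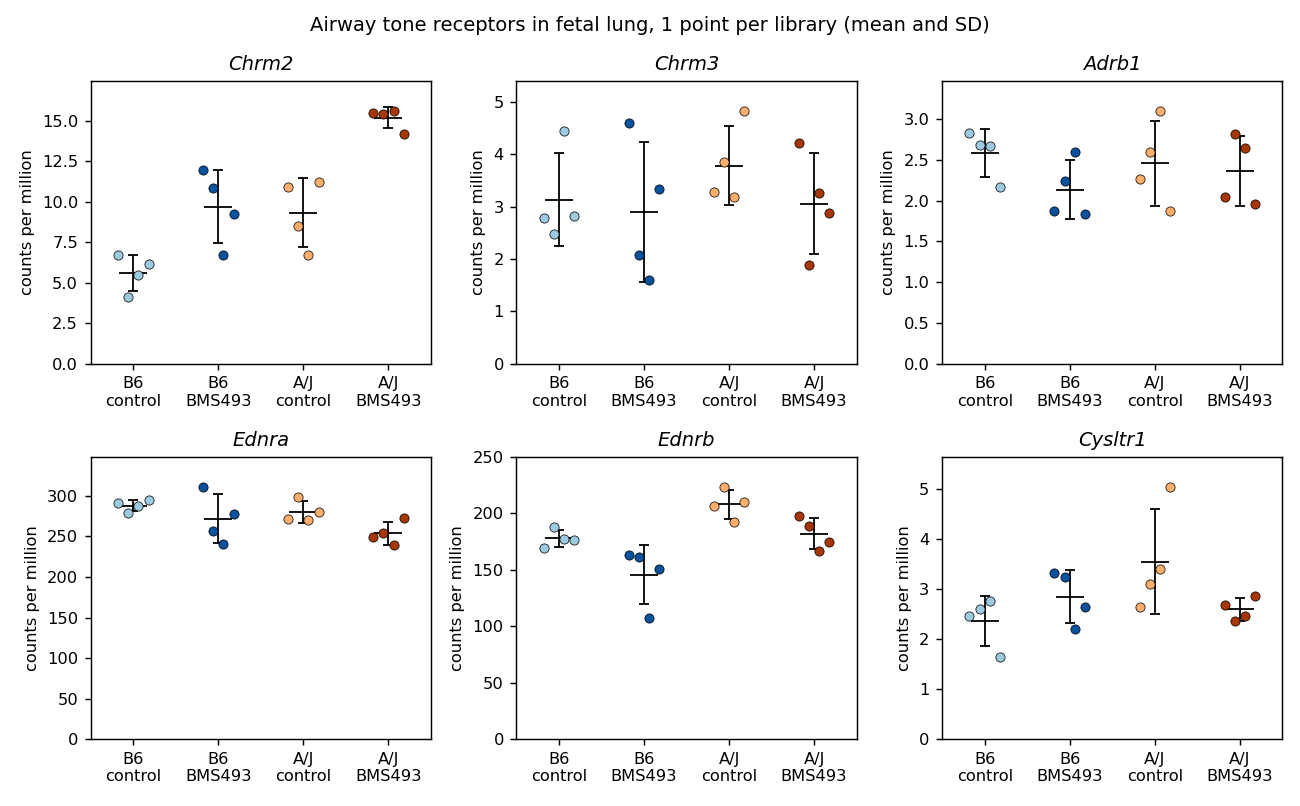
Level of each receptor in CPM (vertical axis, from 0) in the 16 libraries, 1 point per library, by group (horizontal axis), with the group mean and SD. The A/J BMS493 libraries of Chrm2, at 14.2 to 15.6 CPM, lie above all libraries of the other groups, and the Chrm3 and Adrb1 groups all overlap.

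Chrm2 had the clearest differences. B6 control libraries held 6.70, 4.09, 5.49 and 6.16 CPM (replicates 1 to 4), and B6 BMS493 libraries 11.97, 10.8, 6.74 and 9.25 CPM. A/J control libraries held 10.9, 8.48, 6.69 and 11.2 CPM, and A/J BMS493 libraries 15.5, 15.4, 15.6 and 14.2 CPM. In both strains every BMS493 library was above every control library of that strain, although in B6 replicate 3 of the BMS493 group was only just above the highest control. The A/J BMS493 group was above all other libraries, while the B6 BMS493 and A/J control groups overlapped almost fully.

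Chrm2 rose with BMS493 in B6 from 5.61 ± 1.13 to 9.69 ± 2.26 CPM (SD, n = 4 each), a log2 fold change of 0.81 (SE 0.18, edgeR adjusted p = 0.0393). It was the 1 receptor of 6 called in that comparison (adjusted p under 0.05), where 0.423% of all tested genes were called. In A/J it averaged 9.33 ± 2.14 CPM in controls and 15.2 ± 0.653 CPM with BMS493 (SD, n = 4 each). That log2 difference of 0.71 (SE 0.17) had an edgeR adjusted p of 0.0564 and was not called, and with it none of the 6 receptors was called in A/J, where 0.486% of all genes were. At an unadjusted p under 0.05 were 3 receptors in A/J (Chrm2, Ednra and Ednrb), where 6.23% of all genes were. In B6 the receptors under that threshold were Chrm2 and Ednrb, beside 9.11% of all genes. DESeq2 called 1 in A/J, Chrm2, at an adjusted p of 0.00821. The test of the difference between the strains' BMS493 effects gave -0.10 for Chrm2 (SE 0.24, adjusted p = 0.999). It called 0 of the 6 receptors with edgeR or with DESeq2, where edgeR called 0.00579% of all genes. At an unadjusted p under 0.05 was 1 receptor (Cysltr1), beside 3.68% of all genes.

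The mean of both strains' effects, a contrast added after the separate effects had been seen, was 0.76 for Chrm2 (SE 0.12, edgeR adjusted p = 0.000693). It called this 1 receptor and 1.37% of all genes. The call in B6 stood in 1 of 8 fits that each left out 1 library, the fit without BMS493 replicate 3 (0.94, adjusted p = 0.00454), while the log2 fold change stayed between 0.67 and 0.94. In A/J leaving out control replicate 4 brought the call (adjusted p = 0.0392) and the other 7 fits did not, with log2 fold changes of 0.58 to 0.80. The mean effect was called in all 16 such fits, at 0.69 to 0.82.

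**Figure D2:**
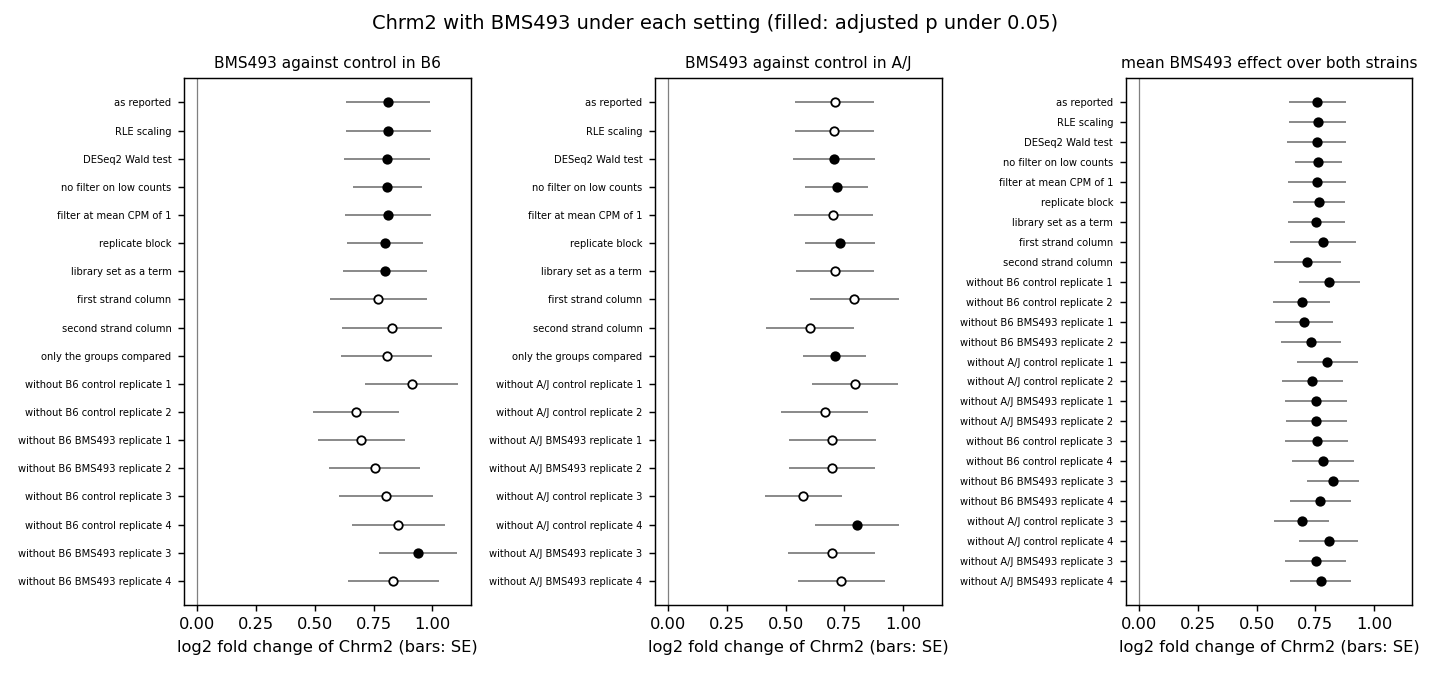
Log2 fold change of Chrm2 with BMS493 (horizontal axis, bars of 1 SE) under each setting (vertical axis), for B6, A/J and the mean of both, with filled points where the adjusted p is under 0.05. All points lie to the right of 0, between 0.58 and 0.94, while the points for single strains are filled or open depending on the setting.

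Library numbers, the other label given, form sets of 1 to 8 and 9 to 16 with 2 libraries of each group in each set. Within these sets the Chrm2 difference with BMS493 was 1.10 and 0.43 on the log2 CPM scale in B6, and 0.68 and 0.77 in A/J. The second B6 value holds replicate 3 of the BMS493 group. These differences had to lie above 0, since every BMS493 library was above every control of its strain. The sets therefore show only how their size varied and add no support.

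The strain difference of Chrm2 was of a similar size. A/J controls were higher than B6 controls by 0.74 (SE 0.18, edgeR adjusted p = 0.00475) on the log2 scale, although the lowest A/J control library, 6.69 CPM, was level with the highest B6 control. With BMS493 the strains differed by 0.64 (SE 0.17, adjusted p = 0.00784) with no overlap, and by 0.50 (adjusted p = 0.0251) without B6 BMS493 replicate 3. Both strain calls were kept in all fits that left out 1 library. Calls between strains were common: 16.9% of all genes in controls and 20.0% with BMS493. Chrm2 was the 1 receptor called between control strains, and Chrm2 and Ednrb were the 2 called with BMS493.

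Groups without overlap in CPM were found in 4.71% of all genes for BMS493 in B6 and 4.87% in A/J. Of the receptors, Chrm2 and Ednrb had none in B6, and Chrm2 alone had none in A/J. Between strains 24.3% of all genes had no overlap in controls and 19.5% with BMS493. Ednrb separated the strains in both, and Chrm2 with BMS493 only. For the strain comparisons, 1 and 2 of 6 receptors lie near the shares of all genes, so these counts are no result about the receptors.

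Promoter sequences for 5 of the 6 receptors were taken from RefSeq (build GRCm38.p6), from 250 bases before to 50 bases after the annotated start. Chrm2 is shown because its level changed, Chrm3 because it is the partner receptor for the same ligand and holds the one half-site found, and Ednrb because it differed between strains. Capitals mark a half-site of the kind bound by retinoic acid receptors. The windows are chr6:36387834-36388133 on the plus strand for Chrm2, chr13:10360754-10361053 on the minus strand for Chrm3 and chr14:103843652-103843951 on the minus strand for Ednrb, each printed 5′ to 3′ on the strand of its gene.
Chrm2: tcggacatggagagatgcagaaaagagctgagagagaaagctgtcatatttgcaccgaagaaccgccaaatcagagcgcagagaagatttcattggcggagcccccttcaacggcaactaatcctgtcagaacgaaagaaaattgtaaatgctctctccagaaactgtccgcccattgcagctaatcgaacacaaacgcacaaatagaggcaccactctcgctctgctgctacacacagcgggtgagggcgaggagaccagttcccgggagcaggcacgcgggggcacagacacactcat
Chrm3: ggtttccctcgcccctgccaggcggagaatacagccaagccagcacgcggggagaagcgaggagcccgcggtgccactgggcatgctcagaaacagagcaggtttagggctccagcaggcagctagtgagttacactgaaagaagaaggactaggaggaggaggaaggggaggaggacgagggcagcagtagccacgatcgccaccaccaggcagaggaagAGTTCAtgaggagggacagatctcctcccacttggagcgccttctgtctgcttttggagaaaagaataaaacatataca
Ednrb: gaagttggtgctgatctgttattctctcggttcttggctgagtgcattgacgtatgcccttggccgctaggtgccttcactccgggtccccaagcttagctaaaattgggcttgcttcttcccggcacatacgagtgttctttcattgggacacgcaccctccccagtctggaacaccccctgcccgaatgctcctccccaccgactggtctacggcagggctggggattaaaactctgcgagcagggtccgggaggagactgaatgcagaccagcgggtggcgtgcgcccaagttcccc
Both strands were searched for the half-site AGGTCA. Its variant AGTTCA was searched in the same way. The word GGGTCA was also searched. So was GGTTCA. The 5 windows held 1 match, AGTTCA in that of Chrm3, 29 bases before the start, while Chrm2, Adrb1, Ednra and Ednrb held none. At least 1 of these 4 words occurs in 43.7% of 32851 promoter windows of this length, and AGTTCA in 13.99%. The CArG box, the element of smooth muscle genes bound by serum response factor, was in none of the 5 windows and in 1.63% of all. Base composition differed more: GC content was 52.7% for Chrm2, 57.3% for Chrm3, 58.7% for Ednrb, 54.7% for Ednra and 72.3% for Adrb1, where the median of all windows was 52.7%. A match is a description of letters and not a bound site, and no match says only that these words are not in the window.

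Chrm3, the Gq-coupled receptor that drives contraction, did not follow Chrm2. B6 control libraries held 2.78, 2.48, 4.45 and 2.82 CPM and B6 BMS493 libraries 4.59, 2.07, 1.60 and 3.33. A/J control libraries held 3.28, 3.85, 3.19 and 4.82 CPM and A/J BMS493 libraries 4.22, 1.89, 3.26 and 2.87. All 4 groups overlapped, and both BMS493 groups spread more widely than their controls. The log2 difference with BMS493 was -0.10 (SE 0.29, adjusted p = 0.941) in B6 and -0.30 (SE 0.28, adjusted p = 0.992) in A/J, and at 24 to 91 counts per library these SE leave room for changes in either direction. Without B6 BMS493 replicate 3 the B6 difference was 0.075 (adjusted p = 0.971). Between strains it differed by 0.27 (adjusted p = 0.571) in controls and 0.068 (adjusted p = 0.900) with BMS493, or -0.12 (adjusted p = 0.819) without that library.

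The ratio of Chrm2 to Chrm3 counts within a library does not depend on scaling between libraries. It was 2.39, 1.64, 1.23 and 2.17 in B6 controls and 2.60, 5.18, 4.14 and 2.76 with BMS493. In A/J it was 3.31, 2.20, 2.09 and 2.32 in controls and 3.66, 8.08, 4.76 and 4.91 with BMS493. Every BMS493 library had a higher ratio than every control of its strain, and the B6 BMS493 library that stood apart, replicate 3, was here not the lowest. The geometric means were 1.80 and 3.52 in B6 and 2.44 and 5.13 in A/J. The mean log2 ratio was higher with BMS493 by 0.97 in B6 and 1.07 in A/J. Each had an exact two-sided permutation p of 0.0286, the smallest that 4 against 4 libraries allow, and 0.0571 after adjustment over the 8 ratio comparisons made, so neither passed. Between strains the log2 ratio differed by 0.44 in controls (exact permutation p = 0.229) and 0.54 with BMS493 (exact permutation p = 0.200), both adjusted to 0.261, with overlap. Leaving out 1 library, these ranged from 0.25 (without B6 control replicate 3) to 0.57 and from 0.32 (without A/J BMS493 replicate 2) to 0.73.

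**Figure D3:**
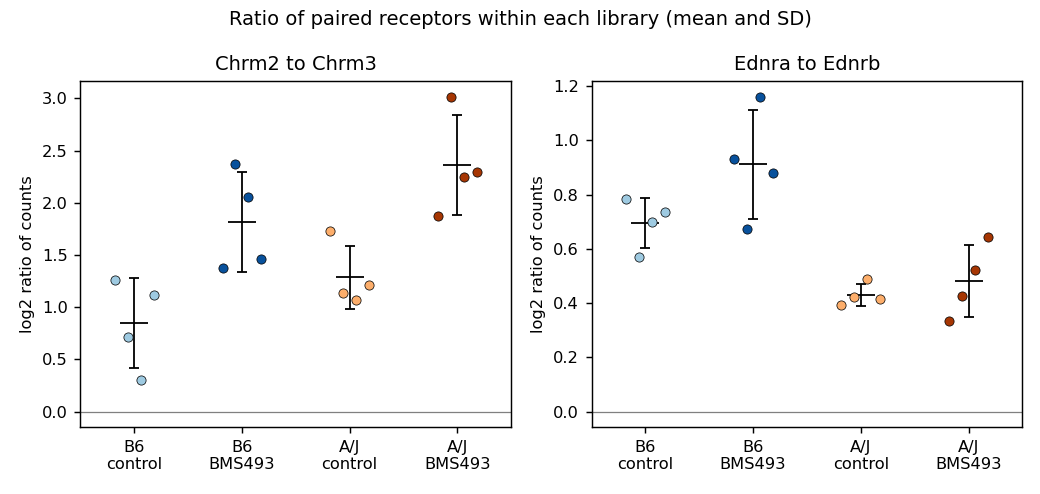
Log2 ratio of counts within each library (vertical axis) for Chrm2 to Chrm3 and for Ednra to Ednrb, by group (horizontal axis), 1 point per library with mean and SD. The BMS493 libraries of both strains lie above their controls on the left, and the A/J libraries lie below the B6 libraries of the same treatment on the right.

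Ednrb was lower with BMS493 in both strains, without passing the test in either. B6 control libraries held 169, 188, 177 and 177 CPM and B6 BMS493 libraries 163, 161, 108 and 151. A/J control libraries held 207, 223, 192 and 209.8 CPM and A/J BMS493 libraries 198, 189, 167 and 175. In B6 all BMS493 libraries were below all controls, with replicate 3 far below the rest, while in A/J the groups overlapped. The log2 difference was -0.29 in B6 (SE 0.093, edgeR adjusted p = 0.297) and -0.17 without BMS493 replicate 3 (adjusted p = 0.356). In A/J it was -0.19 (SE 0.093, adjusted p = 0.800), and the mean effect was -0.24 (SE 0.066, adjusted p = 0.0800). Without B6 BMS493 replicate 3 the mean effect was -0.18 with a smaller adjusted p of 0.0190. It was called in 3 of 16 fits that left out 1 library, the others being those without B6 BMS493 replicate 1 and replicate 2 (adjusted p = 0.0349 and 0.0493), with adjusted p up to 0.183 over all 16. The mean effect was also called with DESeq2 (-0.24, adjusted p = 0.0322), with the replicate number as a block (-0.25, adjusted p = 0.0124), with the library set as a term (-0.24, adjusted p = 0.0251) and with the first strand column (-0.28, adjusted p = 0.0295). Without a filter on low counts both the mean effect (adjusted p = 9.58e-05) and the B6 effect (adjusted p = 0.00357) were called.

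Ednrb was higher in A/J than in B6. The log2 difference was 0.23 in controls (SE 0.093, edgeR adjusted p = 0.103), where it was not called, and 0.32 with BMS493 (SE 0.093, adjusted p = 0.0181), where it was. The groups did not overlap in either comparison. Without B6 BMS493 replicate 3 the difference with BMS493 was 0.19 (adjusted p = 0.0258), and without A/J BMS493 replicate 1 it was 0.28 and not called (adjusted p = 0.0635). Fitted on only the groups compared, the call with BMS493 was lost (adjusted p = 0.0755) and the control difference was called (adjusted p = 0.00335). The control difference was also called with the replicate block (adjusted p = 0.0402) and without a filter (adjusted p = 0.0122). Endothelium, where Ednrb is known to be expressed, went the other way: 6 of 8 endothelial markers were called lower in A/J controls and 8 of 8 with BMS493. Their summed level was 1254 to 1370 CPM in B6 controls and 904 to 1089 CPM in A/J controls. Neural crest, glia and neuron markers moved in both directions, with 2 called higher and 1 lower in A/J controls and 3 higher and 1 lower with BMS493, of 11 tested. Beside these marker counts stand 16.9% of all tested genes that passed between strains in controls and 20.0% with BMS493. The endothelial counts lie well above those shares, while the neural counts, on 11 genes, were not read as a result about that list. The part of either cell type in the Ednrb difference was not tested.

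Ednra, the contractile endothelin receptor, gave no difference that passed the test. B6 control libraries held 291, 279, 287 and 295 CPM and B6 BMS493 libraries 311, 257, 241 and 278. A/J control libraries held 272, 299, 270.4 and 279.6 CPM and A/J BMS493 libraries 249.7, 254, 239.6 and 273. The B6 BMS493 group held both the highest library and nearly the lowest, and the groups overlapped in each of the 4 comparisons of strain or treatment. All B6 controls lay above all A/J BMS493 libraries, a pair of groups that differs in both. The log2 difference with BMS493 was -0.084 in B6 (SE 0.066, adjusted p = 0.741) and -0.14 in A/J (SE 0.066, adjusted p = 0.752), and between strains it was -0.040 in controls and -0.098 with BMS493 (adjusted p = 0.744 and 0.328). Without B6 BMS493 replicate 3 the B6 difference was -0.034 (adjusted p = 0.929) and the strain difference with BMS493 -0.16 (adjusted p = 0.0690). Without replicate 1 of that group, the highest, they moved the other way, to -0.15 (adjusted p = 0.281) and -0.025 (adjusted p = 0.823).

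Within libraries Ednra exceeded Ednrb in counts throughout. In B6 the geometric mean of the ratio was 1.62 for controls and 1.88 for BMS493. The corresponding A/J values were 1.35 and 1.40. The A/J libraries did not overlap with the B6 libraries of the same treatment. The mean log2 ratio was lower in A/J by -0.27 in controls and by -0.43 with BMS493, each with an exact permutation p of 0.0286 and 0.0571 after adjustment. With BMS493 the mean log2 ratio differed by 0.21 in B6 (exact permutation p = 0.114, adjusted 0.183) and 0.052 in A/J (exact permutation p = 0.514), neither past the threshold. Without B6 BMS493 replicate 3 the B6 value was 0.13.

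Adrb1 gave no difference that passed the test. B6 control libraries held 2.84, 2.69, 2.67 and 2.16 CPM and B6 BMS493 libraries 1.87, 2.24, 2.60 and 1.84. A/J control libraries held 2.27, 2.60, 3.10 and 1.87 CPM and A/J BMS493 libraries 2.04, 2.82, 2.65 and 1.96. All groups overlapped around the same level. The log2 difference with BMS493 was -0.29 in B6 (SE 0.22, adjusted p = 0.731) and -0.058 in A/J (SE 0.21, adjusted p = 1), and between strains it was -0.073 in controls and 0.15 with BMS493 (adjusted p = 0.863 and 0.678).

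With counts regardless of strand and all 16 libraries, Cysltr1 was the receptor whose BMS493 estimates lay furthest apart in the 2 strains. B6 control libraries held 2.47, 2.60, 2.77 and 1.64 CPM and B6 BMS493 libraries 3.33, 3.26, 2.20 and 2.64. A/J control libraries held 2.65, 3.12, 3.42 and 5.05 CPM and A/J BMS493 libraries 2.69, 2.38, 2.47 and 2.87. A single A/J control library stood well above the rest, and all groups overlapped. The log2 difference with BMS493 was 0.27 in B6 (SE 0.22, adjusted p = 0.760) and -0.44 in A/J (SE 0.22, adjusted p = 0.802). The difference of these effects was -0.71 (SE 0.31), with an unadjusted p of 0.0309 and an edgeR adjusted p of 0.999. Over 8 alternatives it ranged from -1.15 to -0.40, and that of Chrm3 from -0.40 to 0.038. A/J controls were higher than B6 controls by 0.56 (SE 0.22, adjusted p = 0.0809), not called, and with BMS493 the difference was -0.15 (adjusted p = 0.696), or -0.25 (adjusted p = 0.491) without B6 BMS493 replicate 3. Leaving out 1 library, the B6 difference with BMS493 lay between 0.14 and 0.36 and was not called. Without the high library, A/J control replicate 4, the BMS493 difference in A/J was -0.24 (adjusted p = 1) and the control strain difference 0.36 (adjusted p = 0.323). The control strain difference was called without A/J control replicate 1 (0.68, adjusted p = 0.0473) and with the second strand column (0.95, adjusted p = 0.0267). Over the 9 alternatives that kept all libraries of the groups compared it ranged from 0.30 to 0.95, with adjusted p up to 0.496, and was called in 1.

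**Figure D4:**
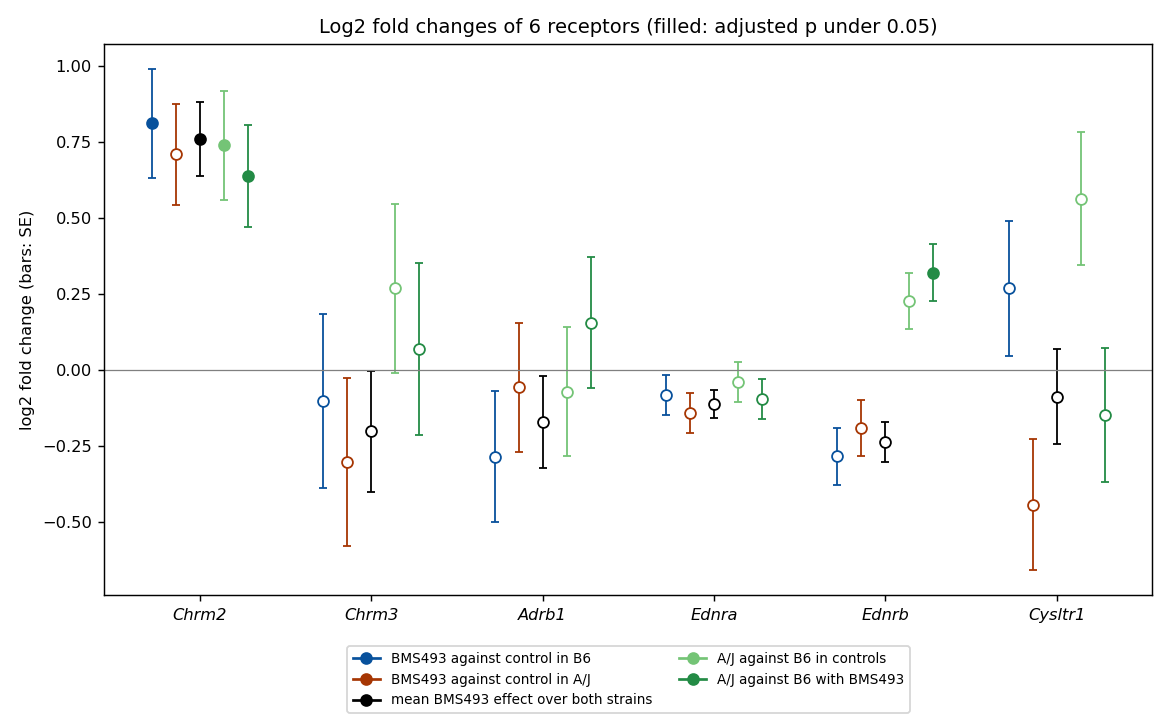
Log2 fold change of each receptor (vertical axis, bars of 1 SE) in 5 contrasts (colours), with filled points where the edgeR adjusted p is under 0.05. Chrm2 is the receptor filled in 4 contrasts, and Ednrb is filled for A/J against B6 with BMS493.

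The order of the groups differed between receptors. For Chrm2 it was A/J BMS493, B6 BMS493, A/J control and B6 control, and only the first step was free of overlap between neighbours. For Ednrb it was A/J control, A/J BMS493, B6 control and B6 BMS493, and only the last step was free of overlap. For Chrm3, Adrb1, Ednra and Cysltr1 all neighbours in the order overlapped.

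Ligands and the enzymes that make them were read beside the receptors. Chat, which makes acetylcholine, had no count in any library, which allows up to 0.124 to 0.197 CPM depending on the library, and Slc18a3, its vesicular transporter, had at most 6 counts. Acetylcholinesterase (Ache) averaged 0.480 to 0.802 CPM and butyrylcholinesterase (Bche) 19.5 to 23.6 CPM over the groups. Of the endothelins, Edn1 averaged 3.38 to 4.45 CPM and Edn3, which acts mainly on Ednrb, 25.8 to 35.2 CPM. Edn2 had at most 17 counts in a library, and the processing enzyme Ece1 averaged 139 to 159 CPM. For the leukotrienes, Alox5 averaged 0.740 to 0.919 CPM, its partner Alox5ap 0.381 to 0.536 CPM and Ltc4s, the synthase of leukotriene C4, had at most 3 counts in a library. The related receptors Chrm1, Chrm4, Chrm5 and Cysltr2 had at most 9 counts in a library and were not tested.

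The other genes of these pathways were taken from 8 lists, with 114 genes tested besides the receptors. With BMS493 in B6 edgeR called 0 of 114, with 16 at an unadjusted p under 0.05, and DESeq2 called 1. In A/J 2 were called, both lower, with 19 at an unadjusted p under 0.05, and DESeq2 called 3. The unadjusted counts are 14.04% of the lists in B6 and 16.7% in A/J, beside 9.11% and 6.23% of all genes. The calls by edgeR stand beside 0.423% of all tested genes called in B6 and 0.486% in A/J. The median log2 difference of the 114 genes was 0.022 in B6 and 0.0091 in A/J, near the medians of all tested genes, 0.0070 and -0.0019.

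Itpr1, the calcium release channel opened by Gq signalling, was the 1 called of 26 genes in the Gq and RhoA list. It fell in A/J from 103 ± 6.90 to 77.7 ± 5.48 CPM (SD, n = 4 each), by 0.41 on the log2 scale (SE 0.062, edgeR adjusted p = 0.000506). In B6 its log2 difference was -0.13 (adjusted p = 0.541). Arrb1, an arrestin that uncouples activated receptors, was the 1 called of 12 in the desensitisation list. It fell in A/J from 147 ± 11.4 to 110.5 ± 9.45 CPM (SD, n = 4 each), by 0.41 on the log2 scale (SE 0.069, adjusted p = 0.00196), and its log2 difference in B6 was -0.24 (adjusted p = 0.172). Both calls in A/J were kept in all 8 fits that left out 1 library. The difference of the strains' BMS493 effects called 0 of the 114 genes with edgeR or DESeq2. At an unadjusted p under 0.05 were 7, or 6.14% of the lists beside 3.68% of all genes. The added mean contrast called 6 of the 114 genes, 3 lower and 3 higher, beside 1.37% of all genes. The lower ones were Itpr1 (-0.27, adjusted p = 0.000696), Arrb1 (-0.33, adjusted p = 0.000265) and the tachykinin receptor Tacr2 (-1.05, adjusted p = 0.0302). The higher ones were the prostaglandin receptor Ptger2 (0.63, adjusted p = 0.0461), the calcium sensor Stim1 (0.25, adjusted p = 0.0480) and the adenylyl cyclase Adcy2 (0.23, adjusted p = 0.0357). The cholinergic, adrenergic, endothelin, leukotriene, other receptor and Gs, Gi and cyclic AMP lists had 0 genes called by edgeR in either strain.

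**Figure D5:**
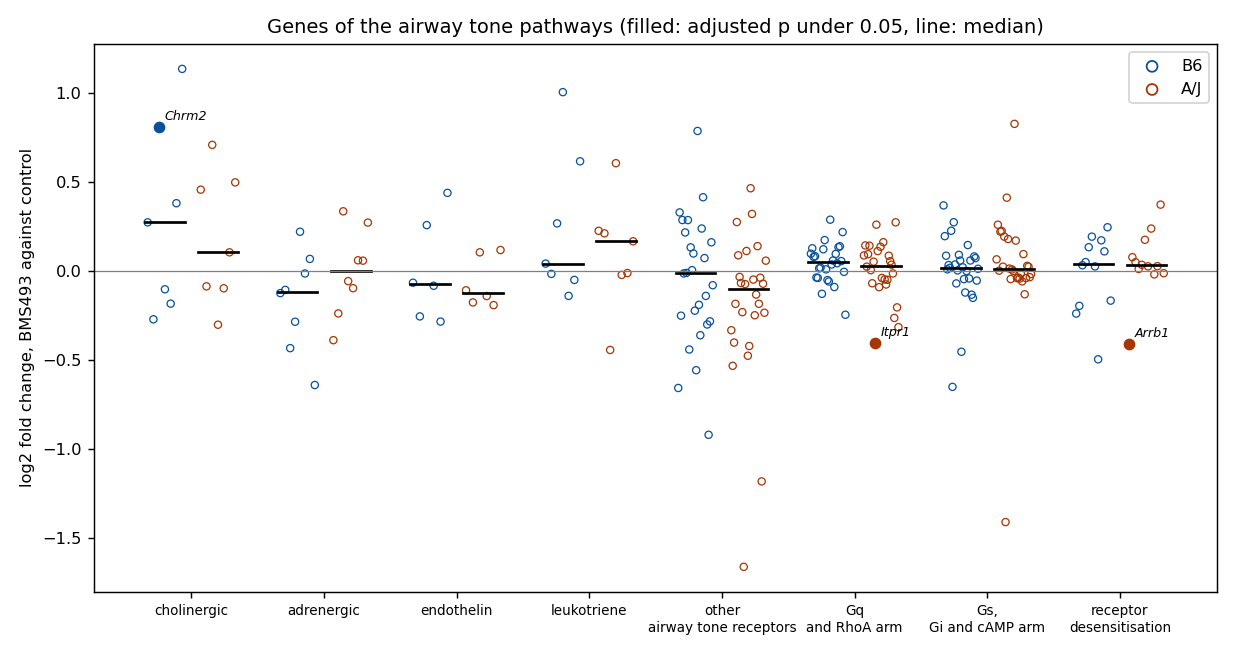
Log2 fold change with BMS493 (vertical axis) of every tested gene in 8 pathway lists (horizontal axis), the receptors included, in B6 (blue) and A/J (orange), with filled points where the adjusted p is under 0.05 and a line at the median. Chrm2 in B6 and Itpr1 and Arrb1 in A/J are the 3 filled points.

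Between strains 23 of the 114 genes were called in controls, 6 higher and 17 lower in A/J, and 28 with BMS493, 8 higher and 20 lower. These are 20.2% and 24.6% of the lists, near the 16.9% and 20.0% called among all genes, so the counts are no result about the lists. The largest difference was in Rgs4, a regulator that shortens Gq and Gi signals. It averaged 3.96 ± 0.843 CPM in B6 controls and 16.5 ± 1.78 in A/J controls (SD, n = 4 each), a log2 difference of 2.07 (edgeR adjusted p = 9.09e-10), and 2.20 with BMS493 (adjusted p = 1.97e-10). Rgs5, of the same family and also a pericyte marker, was higher in A/J by 0.79 and 0.94. Of 8 pericyte and vascular muscle markers it was the 1 called higher, with 4 called lower in A/J in controls and 4 with BMS493, and medians of -0.42 in both. Arrb1 was lower in A/J by -0.29 in controls and -0.46 with BMS493.

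In the endothelin list 0 of 4 genes were called between control strains, with edgeR. With BMS493 both Edn3 (-0.34, adjusted p = 0.0203) and Mme, a protease that degrades endothelins (-0.78, adjusted p = 0.00673), were lower in A/J, where Ednrb was higher. The Edn3 call was lost without A/J BMS493 replicate 3, without A/J BMS493 replicate 4 and without B6 BMS493 replicate 2, where the log2 difference was -0.22 (adjusted p = 0.140). Without that B6 library Mme was at -0.42 and still called (adjusted p = 0.0445). Over 9 processing alternatives the Mme call stood in 8 (adjusted p up to 0.0576) and the Edn3 call in 7 (adjusted p up to 0.111). In the adrenergic list Adra1d, an alpha receptor, was lower in A/J by -0.59 in controls (adjusted p = 0.0291) and -0.72 with BMS493 (adjusted p = 0.00761). The control call stood in 3 of 8 fits that left out 1 library, those without B6 replicate 3, A/J replicate 1 or A/J replicate 3, with adjusted p up to 0.108 in the others. Of other contractile or relaxing receptors, the prostaglandin receptor Ptger3 was lower in A/J controls by -1.37 and the protease-activated receptor F2rl1 by -0.97, while Npr3, which clears natriuretic peptides, was higher by 0.84 and the VIP receptor Vipr2 by 0.55. The Vipr2 call stood in 3 of 8 such fits, those without B6 replicate 2, A/J replicate 1 or A/J replicate 3 (adjusted p up to 0.0939 in the others), and the calls of Ptger3, F2rl1 and Npr3 stood in all 8. In the Gq list Plcb2, a phospholipase C, was lower in A/J controls by -0.97, a call that stood in 8 of 9 processing alternatives (adjusted p up to 0.0835). Fragments of both strains were aligned to 1 build, GRCm39, by the submitters' processing notes, and multimapping fragments made up 2.81% to 3.29% in B6 and 3.62% to 4.06% in A/J libraries. The part of this in the strain differences was not tested.

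Cell type markers were read beside the Chrm2 difference, and their counts at an unadjusted p under 0.05 stand against 9.11% of all genes in B6 and 6.23% in A/J. Of 11 tested smooth muscle genes, 1 was called with BMS493 in B6, Actg2, which fell by 0.43 on the log2 scale (adjusted p = 0.000947), with 4 at an unadjusted p under 0.05 and 3 called by DESeq2. In A/J 0 were called, with 5 at an unadjusted p under 0.05 and 0 called by DESeq2. In each strain 9 of the 11 had a log2 difference below 0, with medians of -0.15 and -0.11. The mean contrast called 3 lower: Actg2 (-0.32, adjusted p = 0.000104), Acta2 (-0.27, adjusted p = 0.00425) and Cnn1 (-0.29, adjusted p = 0.0152). The summed level of the 12 listed genes was 1801 to 1901 CPM for B6 controls and 1579 to 1805 CPM for the treated B6 libraries. In A/J the ranges were 1515 to 1818 and 1446 to 1681 CPM. Acta2 had log2 differences of -0.30 in B6 (adjusted p = 0.0657) and -0.23 in A/J (adjusted p = 0.258), Cnn1 -0.36 and -0.22 and Myh11 -0.030 and -0.083, none called in a single strain.

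Heart muscle is known for Chrm2 as its main muscarinic receptor. The 11 heart genes summed to 39.6 to 52.7 CPM in B6 controls and 27.5 to 62.3 with BMS493, and to 25.3 to 43.7 CPM in A/J controls and 30.7 to 51.2 with BMS493. Nppa, an atrial hormone, had no count in any library, and 0 of 8 tested heart genes were called with BMS493 in either strain by edgeR or DESeq2, with 2 in B6 and 1 in A/J at an unadjusted p under 0.05. The ranges overlapped in each comparison. The neural list, in which airway neurons would appear, summed to 119 to 128 and 120 to 155 CPM in B6 and 100.2 to 132 and 110.4 to 121 CPM in A/J. It had 0 of 11 genes called with BMS493 by edgeR in either strain, with 4 in B6 and 0 in A/J at an unadjusted p under 0.05, and 2 and 0 called by DESeq2. In each strain 8 of the 11 had a log2 difference below 0, with medians of -0.35 in B6 and -0.19 in A/J, and the mean contrast called 1 lower with edgeR and 2 with DESeq2. Of 5 tested mast cell genes 3 were called higher with BMS493 in A/J and 0 in B6, beside 0.486% and 0.423% of all genes. At an unadjusted p under 0.05 were 5 in A/J and 1 in B6, and DESeq2 called 4 and 0. In each strain 4 of the 5 had a log2 difference above 0, with medians of 1.55 in A/J and 0.32 in B6. The mean contrast called 2 higher with edgeR. The difference of the strains' effects called 0, with 4 at an unadjusted p under 0.05. The summed level of the 8 listed mast cell genes was 62.0 to 73.6 CPM in A/J controls and 65.9 to 71.8 CPM with BMS493, of which Kit, also found in other cells, averaged 62.9 and 50.6 CPM. Of 6 mesothelium genes 0 were called with BMS493 by edgeR in either strain. In A/J 6 were below 0 (median -0.24), with 3 at an unadjusted p under 0.05. Their sum was 138 to 146 CPM in A/J controls and 113 to 127 CPM with BMS493. In B6 3 were below 0 and 3 above (median 0.072), with 2 at an unadjusted p under 0.05. The part of any of these cell types in the Chrm2 difference was not tested.

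Among 13038 coding genes with a mean of at least 1 CPM, those whose log2 CPM followed Chrm2 most closely over the 16 libraries were Hs6st3, Dchs2 and Vsnl1. Their root mean square differences from Chrm2, each gene centred on its own mean, were 0.290, 0.316 and 0.321, against a median of 0.591 over all genes compared. A gene that did not vary at all would score 0.570, the root mean square of Chrm2 around its own mean. Hs6st3 averaged 6.60, 8.32, 9.16 and 13.6 CPM in B6 control, B6 BMS493, A/J control and A/J BMS493 lungs, lowest and highest in the same groups as Chrm2 and with the middle groups in the other order. For Ednrb the nearest were Dab2, Tirap and Knop1, at 0.0829, 0.0913 and 0.0928 against a median of 0.284 and 0.236 for a gene that did not vary. These are descriptions over libraries that share strain, treatment and depth.

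Without strand, fragments in bases shared with an antisense gene cannot be assigned to either gene. Chrm2 (ENSMUSG00000045613, chromosome 6) shares 2.35% of its exon bases with an antisense gene, 9330158H04Rik, which had 0 to 13 counts per library, and the strand columns together held 3.05% to 4.69% more Chrm2 counts per group. Ednra (ENSMUSG00000031616, chromosome 8) shares 1.66% with 4933431K23Rik, and its strand columns held 9.87% to 12.2% more. Chrm3, Adrb1, Ednrb and Cysltr1 shared no exon bases with another gene in the annotation used. The first strand column held 51.0% to 52.0% of the counts of the stranded pair. With the first and the second strand column alone the Chrm2 log2 fold change with BMS493 in B6 was 0.77 and 0.83 and was not called (adjusted p = 0.127 and 0.0875).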

How the data were processed

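Raw counts per gene, as the authors deposited them, came in 1 file for each of 16 poly(A)-selected libraries, with columns regardless of strand and for each strand. STAR, cutadapt and the build GRCm39 are named without versions, per the submitters' processing notes, and the annotation is not given in the sources used here. The 4 lines that are not genes held 23.1% to 28.3% of 20105760 to 31838104 fragments and were left out. Symbols and exon lengths came from GENCODE M21, which matched 51884 of 57180 identifiers and 98.9% of counts.

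Counts regardless of strand were filtered with filterByExpr, scaled with TMM and tested with the two-sided quasi-likelihood test of edgeR 4.0.16 (R 4.3.3), with 1 coefficient per group, adjusted over 17276 genes by the Benjamini-Hochberg method and called at an adjusted p under 0.05. SE come from the same test. Ratios of counts had 0.5 added to each count and were tested with exact permutations (scipy 1.17.1). On simulated data for BMS493 in B6, with 16978 genes, the test recovered 77.6% of genes changed by 1 and 94.9% of those changed by 2 on the log2 scale, and 6.59% of calls were unchanged genes. The simulation gave every unchanged gene the same mean in all groups and held no library that stood apart. Changes below 1, such as those of the receptors with BMS493, were not simulated.

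Members, gene lists and marker lists were chosen with earlier results of these data known. Besides the 6 receptors, genes named were up to 4 called per list and contrast with the largest change, ligands and their enzymes, Cyp26b1, Dhrs3, Acta2, Myh11 and Cnn1, and the 3 coding genes nearest to each called receptor. Bche, Actg2, Nppa and receptors with few counts fall outside this rule and were named after their values were seen. Dpep2 matched no single identifier, and some genes that the rule names are not reported here. Alternatives were RLE scaling, DESeq2 1.42.0, other filters, a replicate block, the library set, either strand column, only the groups compared, and leaving out each library.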

Additional observations from a re-analysis of the deposited data

Results flagged for a closer look

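Chrm2 in the A/J BMS493 group had 1 library set apart from the other 3. Replicate 4 held 14.2 CPM, while the others held 15.4 to 15.6 CPM. The gap made up 0.899 of the whole range of the group, above Dixon's critical value for 4 libraries. The group was the tightest of the 4 for Chrm2, with an SD of 0.653 CPM. Of 32 groups of values tested in this way 1 stood out, and chance marks about 1 in 20. Without replicate 4 the log2 fold change of Chrm2 in A/J was 0.74 (edgeR adjusted p = 0.0931).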

How the results depend on the processing

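Chrm2 was higher with BMS493 under every alternative run in both strains. With BMS493 in B6 1 receptor was called, 2 without a filter on low counts, where Ednrb was added, and 0 with the first strand column, the second strand column or only the groups compared. In A/J 0 were called, and 1 with DESeq2, no filter, the replicate block or only the groups compared, each time Chrm2. Between control strains the count went from 1 to 2 without a filter, with the replicate block or only the groups compared (Ednrb added) and with the second strand column (Cysltr1 added), and to 0 with the first strand column (Chrm2 lost). With BMS493 it went from 2 to 1 with only the groups compared (Ednrb lost). The mean effect had 2 calls in place of 1, Ednrb being added, with DESeq2, no filter, the replicate block, the library set or the first strand column.

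Calls over all genes moved from 73 in B6 to 162 with DESeq2, 260 without a filter and 27 with only the groups compared, and from 84 in A/J to 158, 178 and 133. For the difference between strains they went from 1 to 2 with DESeq2 and 12 without a filter, and for the mean effect from 237 to 396 and 487. Leaving out 1 library gave 27 to 201 calls in B6, 52 to 90 in A/J, 1 to 2 for the difference and 165 to 371 for the mean effect. Receptors called were then 0 to 1 in B6, 0 to 1 in A/J, 1 to 2 between strains in controls and with BMS493, and 1 to 2 for the mean effect. Leaving out B6 BMS493 replicate 1 gave the 201 calls. The causes of these shifts were not tested.

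Differences that were not called changed sign in places. With the first strand column those for BMS493 in B6 were 0.12 for Chrm3, 0.13 for Adrb1 and -0.076 for Cysltr1. The difference of effects was then 0.021 for Chrm2 and -0.23 for Adrb1, and 0.038 for Chrm3 with the second strand column. Between strains Adrb1 was at 0.11 in controls and -0.12 with BMS493 and Chrm3 at -0.060 with BMS493 with the first strand column, and Ednra at 0.0057 in controls with the second. The mean effect was 0.018 for Adrb1 with the first and 0.16 for Cysltr1 with the second. Leaving out 1 library, the ranges that crossed 0 were -0.42 to 0.12 (Chrm3) in B6, -0.16 to 0.070 (Adrb1) in A/J, -0.20 to 0.034 (Adrb1) between control strains and -0.12 to 0.39 (Chrm3) between strains with BMS493. For the difference of effects they were -0.23 to 0.033 (Chrm2), -0.42 to 0.12 (Chrm3), -0.11 to 0.013 (Ednra) and -0.024 to 0.15 (Ednrb), and for the mean effect -0.15 to 0.013 (Cysltr1). The ratio differences kept their direction and side of an unadjusted p of 0.05 with a pseudocount of 2 and with the sum of both strand columns. Leaving out 1 library, that of Ednra to Ednrb with BMS493 in A/J ranged from -0.0017 to 0.10 and the other 7 kept their direction.

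Same-numbered libraries of paired groups correlated at -0.15 to 0.14, so the replicate numbers were not read as pairing. A/J control replicates 2, 3 and 4 did correlate best with the A/J BMS493 library of their own number, at 0.055, 0.090 and 0.0076. In B6 no control replicate did so. With the replicate block Chrm2 was at 0.73 in A/J (edgeR adjusted p = 0.0156).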
